A study of Mus musculus with 141 samples.

Results

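Transcripts of 10 plasma proteins that the liver secretes were followed here, and they were chosen by gene name: *Alb*, *Afp*, *Ttr*, *Rbp4*, *Serpina6*, *Ahsg*, *Fetub*, *Mug1*, *Mug2* and *Pzp*. All 10 were found among the 24423 genes of each file. RNA-seq libraries had been made from whole liver, lung and kidney of 1 adult male from each of 47 Collaborative Cross (CC) strains, which are inbred mosaics of a common set of founder strains. All animals were 8 to 12 weeks old, ate the NTP 2000 diet and had spent 2 weeks of weekday sessions of 6 hours in chambers with clean air, so that no untreated or second treatment group exists. With 1 mouse per strain, a strain and its individual mouse cannot be told apart, and the replicates of a tissue are the 47 strains.

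Plasma carriers bind small molecules or other proteins in blood. Hepatocytes make most of them and secrete them in large amounts. Albumin (*Alb*) holds fatty acids, bilirubin and osmotic pressure, and alpha-fetoprotein (*Afp*) is its fetal relative, shut off after birth. Transthyretin (*Ttr*) carries thyroxine and holds the retinol-binding protein (*Rbp4*) in the circulation, and corticosteroid-binding globulin (*Serpina6*) carries corticosterone. The fetuins (*Ahsg*, *Fetub*) are cystatin-related proteins, of which *Ahsg* binds calcium phosphate and *Fetub* inhibits the egg-coat protease ovastacin. Murinoglobulins (*Mug1*, *Mug2*) and *Pzp* belong to the alpha-2-macroglobulin family, which traps proteases. Several carriers, among them albumin and transthyretin, are known to fall in plasma during an acute-phase response.

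Libraries held between 1738046 and 42158454 gene counts (median 9043226). The ribosomal precursor *Rn45s* took between 0.146% and 71.7% of the counts of a library, so levels are given as CPM, read counts scaled to a common library size by TMM, a scaling that leaves out genes of extreme abundance. Tissue identity was clear from marker genes: 14 of 14 hepatocyte markers were higher in liver than in lung, 8 of 8 proximal tubule markers were higher in kidney than in lung, and 6 of 6 alveolar and airway markers were higher in lung than in kidney. A value at or under 3 counts in a library was treated as not resolved.

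All 10 carriers were higher in liver than in lung and higher in liver than in kidney (limma-voom, strain as a block, with calls made at q ≤ 0.1 and a change of 1 log2 unit or more). Of all 12127 genes tested, 23.9% were higher in liver than in lung and 15.6% were higher in liver than in kidney. In each of the 47 strains, each of the 10 genes had its higher CPM in the liver library of the pair. For *Ahsg* in CC057, with 1 liver count, and *Afp* in CC033, with 3, the liver value itself was not resolved. Together the 10 genes made up a median of 6.05% of the counts of a liver library, against 0.00694% in lung and 0.0471% in kidney. These shares are of all counts, *Rn45s* included and without TMM scaling, and in liver they ran from 1.32% to 11.2%. On the length-corrected TPM scale the liver medians ran from *Alb* at 57373.5, through *Ttr* at 7951, *Pzp* at 2543, *Mug1* at 2486, *Ahsg* at 608, *Serpina6* at 238 and *Mug2* at 158, down to *Rbp4* at 19.9, *Fetub* at 7.68 and *Afp* at 2.98. Neighbours in this order were close for *Pzp* and *Mug1*, whose ranges of 961 to 5010 and 743 to 3996 TPM nearly coincided.

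Some members have several transcripts in the files. The authors used only uniquely aligned reads, and the files list 4 transcripts for *Ahsg*, 3 for *Fetub* and 2 for *Rbp4*, against 1 for each of the other 7 members. Among all genes in liver, 100 of 18311 genes with 1 transcript had a median above 1000 CPM, against 1 of 6112 genes with more than 1 transcript. The part of transcript number in the low *Rbp4* and *Fetub* levels was not tested.

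**Figure D1:**
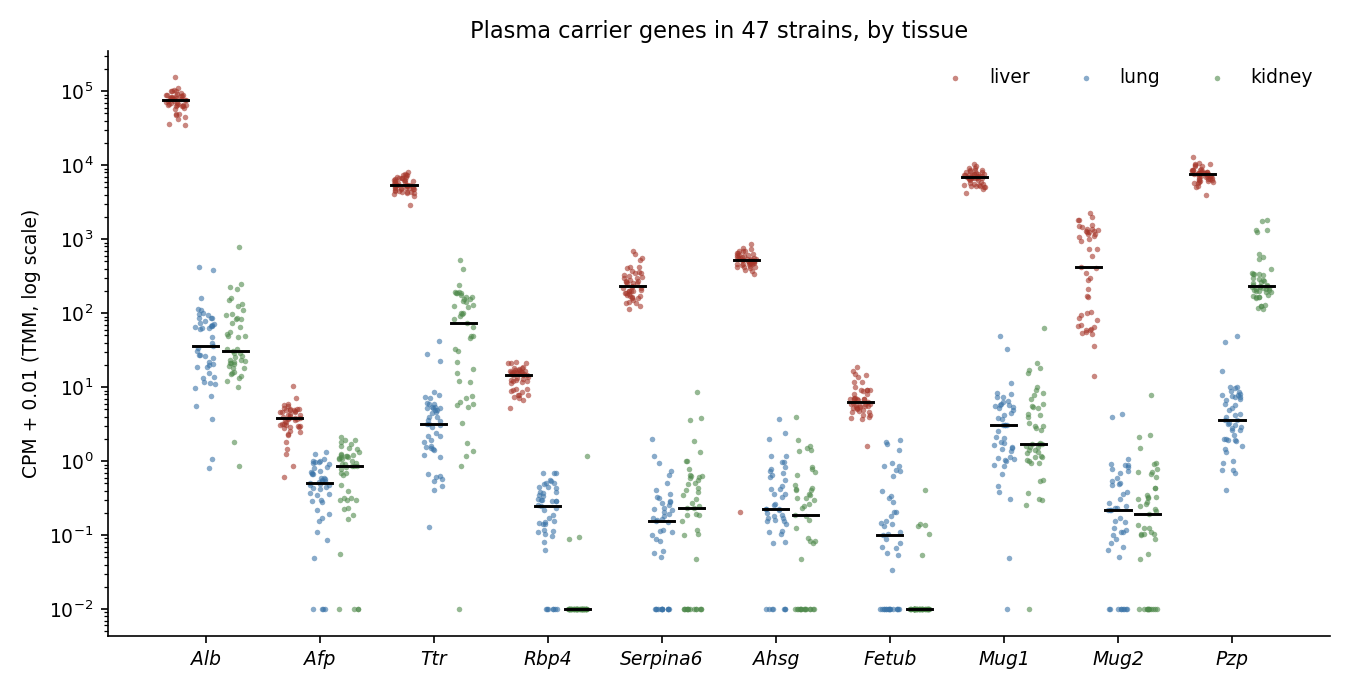
CPM of each carrier (log axis, 0.01 added) in the 47 liver, lung and kidney libraries; each point is a library and the bar is the median. The liver median is the highest of the 3 for every gene, the *Mug2* livers spread from 14.2 to 2289 CPM, 1 *Ahsg* liver lies at 0.197 CPM, and the *Pzp* and *Ttr* kidney medians of 232 and 73.7 CPM lie above the *Alb* kidney median of 31.0 CPM.

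*Alb* lies on chromosome 5 (NCBIM37, chr5:90889915-90905629, plus strand), with *Afp* downstream of it (chr5:90919740-90937933, plus strand). *Alb* in liver ran from 35463 CPM in CC031 to 154061 CPM in CC020, with a median of 75759.9. The top liver stood 0.48 log2 units above the next, CC040 at 110471 CPM, and the SD over strains was 0.42 on the log2 scale, the 55.9th percentile among liver genes. *Alb* was thus the most abundant carrier, with a spread near that of the median liver gene (SD 0.39). In lung its level ran from 0.801 to 421.8 CPM around a median of 35.5, and in kidney from 0.840 to 782.5 CPM around 31.0. No lung or kidney library reached the lowest liver. *Alb* was 10.99 ± 0.22 log2 units (SE) higher in liver than in lung (q = 2e-69) and 10.84 ± 0.22 higher than in kidney (q = 1.2e-68), and it was not called between lung and kidney (log2 fold change -0.15 ± 0.23, q = 0.52).

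The 250 bases before the RefSeq start of *Alb* are shown because they hold the HNF1 motif of the most abundant carrier. Sequences come from RefSeq's promoter table and were placed in NCBIM37 by an exact match; bases are in lower case and the motif GTTAAT, read on either strand, is in capitals.

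*Alb*, chr5:90889646-90889895, plus strand: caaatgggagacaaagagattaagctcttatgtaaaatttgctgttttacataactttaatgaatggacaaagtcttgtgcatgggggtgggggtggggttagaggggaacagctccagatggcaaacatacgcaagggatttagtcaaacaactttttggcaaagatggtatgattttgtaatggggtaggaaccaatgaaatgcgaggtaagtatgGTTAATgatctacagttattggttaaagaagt

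The motif begins at -32 from the start. At least 1 promoter of 300 bases (250 before and 50 after the start) was listed for 8 of the 10 members, 2 each for *Fetub* and *Rbp4*, with none for *Ttr* and *Serpina6*. A member was counted if any of its promoters held a motif, whereas the share of all promoters is per promoter, so the counts that include *Fetub* or *Rbp4* are not on the same footing. GTTAAT was present in 5 of these 8 (*Alb*, *Afp*, *Mug1*, *Mug2*, *Pzp*), against 7.13% of 32544 promoters. The C/EBP motif TTNCNNAA was present in 6 of 8, against 40.7% of all promoters, and the glucocorticoid receptor motif TGTTCT also in 6 of 8, against 18.9%. TATAAA was found in 3 of 8 (13.6% of all), the FOXA motif TGTTTAC in 2 of 8 (3.66%), and neither the HNF4 motif CAAAGTCCA (0.479%) nor the STAT motif TTCNNNGAA (8.33%) in any. These are matches of letters on both strands, and no match says only that the letters are not in the window. *Mug1* and *Mug2* are near copies and count as 2 members.

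*Afp* was the lowest of the carriers in liver. It ran from 0.598 CPM in CC055 to 10.2 CPM in CC039, around a median of 3.77, which amounted to a median of 19 counts. Lung had a median of 0.499 CPM and kidney 0.850 CPM, with 12 lung and 16 kidney libraries at or under 3 counts. The liver range overlapped both. *Afp* was 2.94 ± 0.11 log2 units higher in liver than in lung (q = 8.3e-46) and 2.20 ± 0.11 higher than in kidney (q = 7.8e-36), the least of the 10 genes in either comparison. Over the 47 strains the Pearson r of the *Afp* level was 0.62 for liver with kidney, 0.49 for lung with kidney and 0.40 for liver with lung. Without the 2 strains farthest from the median these values became 0.46, 0.36 and 0.17, and the rank correlations were 0.48, 0.21 and 0.17. Because the lung and kidney counts are few, these correlations are given as a description.

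*Ttr* lies on chromosome 18 (chr18:20823751-20832825, plus strand) and was among the steadiest carriers in liver. It ran from 2905 CPM in CC004 to 8094 CPM in CC010, around 5388, with an SD of 0.30 log2 units. In lung it ran from 0.117 to 41.9 CPM around a median of 3.21. Kidney was different: *Ttr* ranged there from no count in CC030 to 530.9 CPM in CC005, around a median of 73.7. Its kidney SD of 2.72 log2 units lay at the 99.9th percentile among kidney genes, and CC028 at 399.8 CPM and CC029 at 237.7 CPM followed CC005. Only CC030 and CC021, the latter with 3 counts, were not resolved in kidney. *Ttr* was 6.72 ± 0.25 log2 units higher in liver than in kidney (q = 4.5e-46). In lung against kidney its log2 fold change was -4.30 ± 0.28 (q = 1.4e-27), with the higher CPM in kidney in 41 of 47 strains. Between the liver and kidney levels of *Ttr*, r over strains was 0.05 (rho = 0.03, permutation p = 0.71, q = 0.83).

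*Rbp4* (chr19:38191110-38199811, minus strand) was a low transcript in these files. In liver it ran from 5.21 CPM in CC020 to 22.0 CPM in CC030, around 14.7, with an SD of 0.50. In lung 27 of 47 libraries were at or under 3 counts, and in kidney all 47 were, with 5 counts in sum, 3 of them in CC027. Pooled over libraries, liver had 57.9 times the CPM of lung (95% Poisson interval 49.7 to 67.8) and 1384 times that of kidney (593 to 4262), where intervals cover counting error only. The fit over 3 tissues gave *Rbp4* a log2 fold change of 1.90 ± 0.11 in lung against kidney (q = 4.8e-30), but the gene entered that fit through its liver level alone. With only lung and kidney in the fit it did not pass the low-count filter, so this call is not read as a difference. Adipose tissue also makes *Rbp4*. The summed CPM of 8 adipocyte markers ran from 0.569 to 115.8 in lung and from 0.375 to 489.6 in kidney, and its part in the lung level of *Rbp4* was not tested.

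*Serpina6* (chr12:104884840-104895422, minus strand) ran in liver from 115.0 CPM in CC023 to 695.9 CPM in CC004, around 230.5. CC027 at 623.7 and CC028 at 554.6 CPM followed CC004, and the SD was 0.62 log2 units, the 76.5th percentile. Outside liver it was mostly unresolved: 33 lungs and 31 kidneys were at or under 3 counts. The highest kidney was that of CC041 with 72 counts and 8.57 CPM, followed by CC057 with 27 counts and 3.76 CPM. CC041 was at the same time the third lowest strain for *Serpina6* in liver, at 135.8 CPM. The gene was 10.55 ± 0.16 log2 units higher in liver than in lung (q = 8.8e-82) and 9.58 ± 0.15 higher than in kidney (q = 1.1e-78). Between lung and kidney its log2 fold change of -0.97 ± 0.14 (q = 1.3e-09) stayed just inside the fold threshold. With most lungs and kidneys unresolved, this value is not read as a difference or as the absence of one.

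The fetuin genes are neighbours on chromosome 16, *Ahsg* at chr16:22892115-22899511 and *Fetub* at chr16:22918455-22939839, both on the plus strand. In 46 livers *Ahsg* ran evenly from 338.5 CPM in CC003 to 873.7 CPM in CC027, around 529, with an SD of 0.28 log2 units. The liver of CC057 had 1 count, or 0.197 CPM, where the other 46 livers had between 372 and 26605 counts. With CC057 the SD was 1.60, so that this 1 library moved *Ahsg* from the 27.6th to the 97.8th percentile of liver genes. The transcript length that the files give for *Ahsg*, an average over its transcripts weighted by abundance, was 1110 bases in CC057 and between 1509.97 and 1514 bases in the other 46 livers. The CC057 length rests on its 1 count and is not read as a difference in transcripts. *Alb* in the same liver was 41975 CPM, the third lowest, and its *Fetub* at 1.58 CPM and *Mug2* at 14.2 CPM were each the lowest of the 47. Whether the *Ahsg* RNA or its alignment differed in CC057 was not tested.

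*Fetub* ran in liver from 1.58 CPM in CC057 to 18.6 CPM in CC021, around 6.36, with an SD of 0.65. The next strain above CC057, CC036, was at 3.68 CPM. In lung 34 of 47 libraries were at or under 3 counts, and the highest were CC042 with 63 counts (1.93 CPM), CC031 with 10 counts (1.81 CPM) and CC039 with 41 counts (1.68 CPM). In kidney there were 7 counts over all 47 libraries. Pooled, liver had 22.4 times the CPM of lung (95% Poisson interval 19.7 to 25.5) and 538 times that of kidney (261 to 1338). In lung against kidney the fit over 3 tissues gave a log2 fold change of 1.43 ± 0.17 (q = 2.3e-13), which is not read as a difference either, since *Fetub* too entered it through liver alone and did not pass the filter with only lung and kidney in the fit. *Ahsg* was not called between lung and kidney (0.37 ± 0.14, q = 0.013, under the fold threshold). With 27 lungs and 33 kidneys at or under 3 counts for *Ahsg*, this is not read as an equal level.

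The macroglobulin genes lie on chromosome 6: *Mug1* at chr6:121788559-121839075 and *Mug2* at chr6:121956816-122035985 on the plus strand, and *Pzp* at chr6:128433585-128476738 on the minus strand. *Mug1* and *Mug2* are near copies. Their coding sequences of 4431 and 4356 bases were 95.2% identical over the aligned bases, and 21.6% of aligned 50-base windows were identical, against 67.2% identity and no identical window between *Mug1* and *Pzp*. Aligned windows of 50 bases, the read length, differed at a median of 2 bases. A coding window with 2 differences, coding bases 110 to 159 of both genes, is shown with the differing bases in capitals, since reads such as these decide between the paralogs.

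*Mug1*, chr6:121790101-121790150, plus strand: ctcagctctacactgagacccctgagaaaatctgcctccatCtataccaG

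*Mug2*, chr6:121958347-121958396, plus strand: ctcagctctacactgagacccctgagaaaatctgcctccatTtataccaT

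Of the 50-base windows in annotated exons, 64.8% of *Mug1* and 50.7% of *Mug2* windows occurred once in NCBIM37, against all windows of the other 8 members. Since only uniquely aligned reads were counted, *Mug1* and *Mug2* levels are uncertain.

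*Mug1* was steady and *Mug2* was not. *Mug1* in liver ran from 4180 CPM in CC061 to 10498 CPM in CC023, around 6989, with an SD of 0.29 log2 units, the 29.4th percentile. *Mug2* ran from 14.2 CPM in CC057 and 35.6 CPM in CC019 to 2007 CPM in CC024 and 2289 CPM in CC020, around 417.6. Its SD of 2.05 log2 units lay at the 99.1st percentile and was 1.96 without CC057. The strains did not spread evenly: 16 were below 110 CPM, 9 were between 110 and 600 CPM, and 22 were above 600 CPM. Between the liver levels of the paralogs r was -0.09 (permutation p = 0.54, q = 0.92). The neighbouring *Mug-ps1* ran from 82.0 to 723.6 CPM in liver, with r = -0.06 to *Mug2*, and its highest livers were CC027 and CC015, at 723.6 and 691.7 CPM.

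The 250 bases before the RefSeq starts of *Mug1* and *Mug2* are shown because this pair differs so much in spread. Here capitals mark the bases that differ or are unmatched in a global alignment of the pair, which paired 206 bases at 95.1% identity.

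*Mug1*, chr6:121788309-121788558, plus strand: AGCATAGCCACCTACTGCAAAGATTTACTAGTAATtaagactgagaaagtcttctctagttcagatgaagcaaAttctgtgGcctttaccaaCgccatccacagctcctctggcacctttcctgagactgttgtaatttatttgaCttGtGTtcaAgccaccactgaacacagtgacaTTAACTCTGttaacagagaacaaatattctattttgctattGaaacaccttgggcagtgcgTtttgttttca

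*Mug2*, chr6:121956566-121956815, plus strand: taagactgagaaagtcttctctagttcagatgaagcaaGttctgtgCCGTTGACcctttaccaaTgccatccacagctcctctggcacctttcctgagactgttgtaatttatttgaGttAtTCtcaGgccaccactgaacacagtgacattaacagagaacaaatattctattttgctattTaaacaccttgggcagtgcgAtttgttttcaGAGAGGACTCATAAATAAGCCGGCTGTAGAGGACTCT

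The *Mug2* stretch also occurred a second time in NCBIM37, at chr6:122125821-122126070. GTTAAT was read on the minus strand in both genes, at -73 from the *Mug1* start and -101 from the *Mug2* start.

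*Pzp* was the third carrier by TPM in liver and the only one above 100 CPM in every kidney. In liver it ran from 3952 CPM in CC068 to 13100 CPM in CC004, around 7560, with an SD of 0.32 log2 units. In lung it ran from 0.400 to 49.3 CPM around 3.57. In kidney it ran from 113 CPM in CC039 to 1843 CPM in CC015, around 231.8, and no kidney had fewer than 528 counts. Of the 47 kidneys, 42 were at or below 623.9 CPM and 5 were at or above 1234 CPM, namely CC044, CC046, CC053, CC027 and CC015. *Pzp* was 4.67 ± 0.15 log2 units higher in liver than in kidney (q = 1.6e-52). In lung against kidney its log2 fold change was -6.08 ± 0.16 (q = 1.4e-58), with the higher CPM in kidney in all 47 strains and no overlap of the ranges. In bulk tissue, fewer cells of a type and less RNA per cell cannot be told apart. Between the liver and kidney levels of *Pzp*, r over strains was -0.06 (rho = 0.08, permutation p = 0.67, q = 0.8).

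Of the 10 carriers, *Pzp* and *Ttr* were called higher in kidney than in lung, where 20.6% of genes were. Higher in lung were 25.5% of genes, and the *Fetub* and *Rbp4* calls in that direction did not survive a fit of lung and kidney alone. The other 6 were not called, and of these *Ahsg*, *Mug2* and *Serpina6* were mostly at or under 3 counts in both organs. The sequence before the *Pzp* start is shown with GTTAAT in capitals, since this gene had the highest median kidney CPM of the carriers. CPM is not corrected for length: on TPM the highest *Ttr* kidney, CC005 at 1519, stood above the highest *Pzp* kidney, CC053 at 1224. The *Pzp* sequence holds the motif at -79 in the direction of the gene and at -199 on the opposite strand.

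*Pzp*, chr6:128476739-128476988, minus strand: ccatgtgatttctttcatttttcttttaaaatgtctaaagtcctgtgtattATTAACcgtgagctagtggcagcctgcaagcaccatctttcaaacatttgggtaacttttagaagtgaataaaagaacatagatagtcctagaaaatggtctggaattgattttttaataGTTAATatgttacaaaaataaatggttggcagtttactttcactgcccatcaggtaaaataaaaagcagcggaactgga

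**Figure D2:**
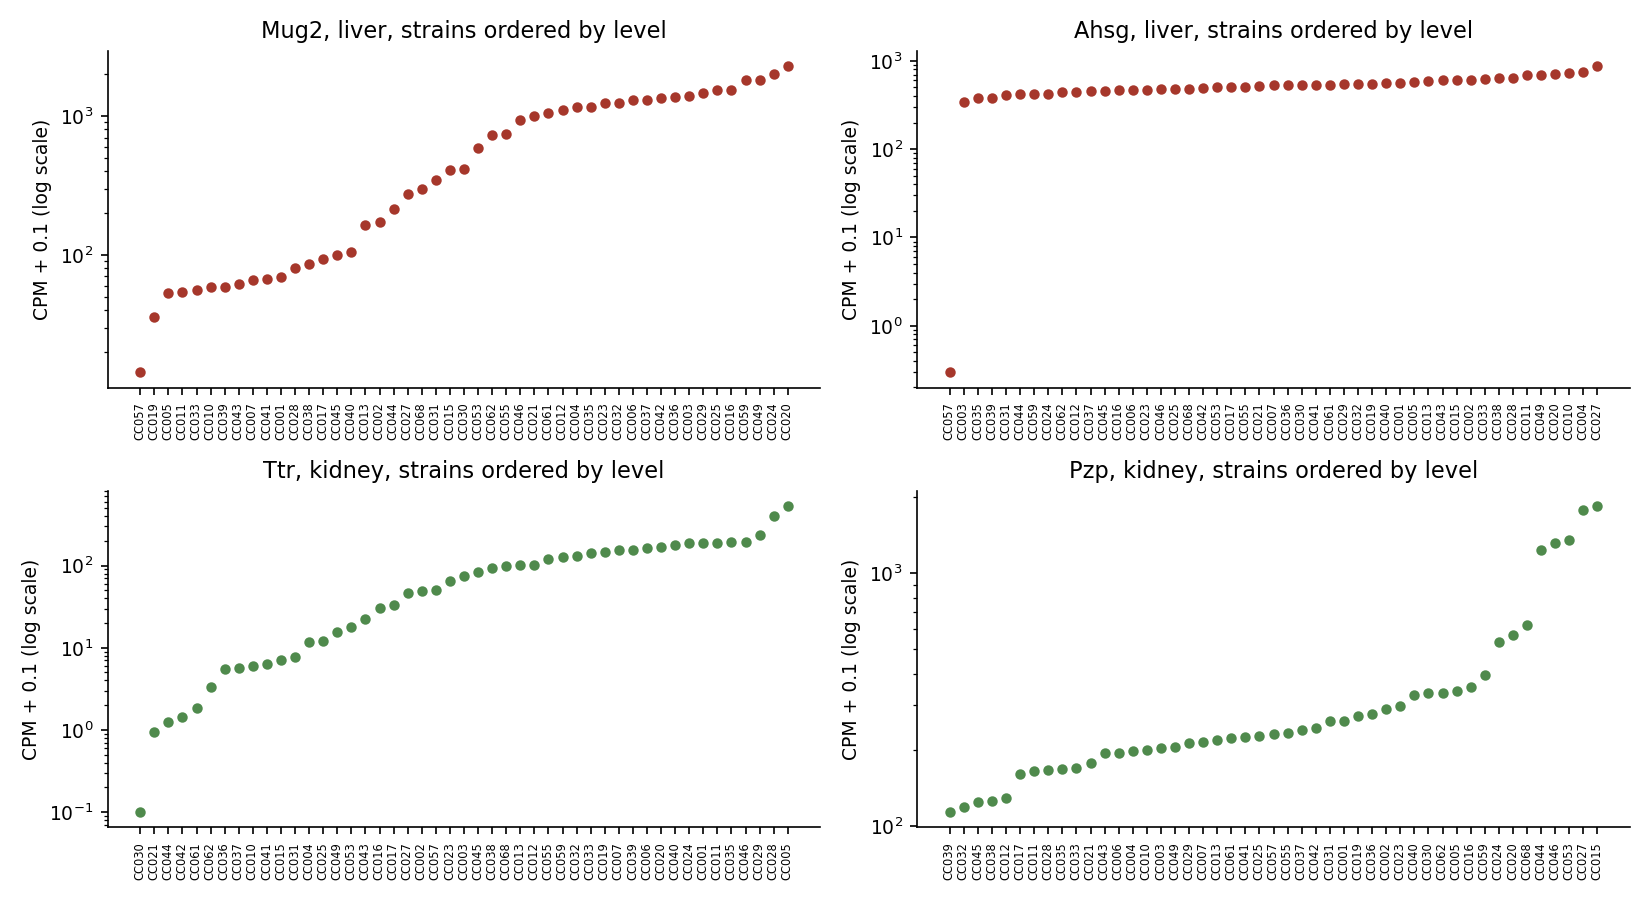
CPM (log axis, 0.1 added) of *Mug2* and *Ahsg* in liver and of *Ttr* and *Pzp* in kidney, with the 47 strains ordered by level; each point is 1 library. *Mug2* climbs from 14.2 to 2289 CPM, *Ahsg* is flat apart from CC057, kidney *Ttr* climbs from 0 to 530.9 CPM, and 5 strains stand at or above 1234 CPM for kidney *Pzp*.

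Whether the carriers vary together among livers was tested over all 45 pairs. None of the 45 reached r = 0.5, which 0.607% of all pairs of liver genes did, and none passed q ≤ 0.1 over all liver genes in the limma regression, while 10 of 45 had a permutation p under 0.05 without adjustment. The highest was *Ahsg* with *Fetub* (r = 0.48, rho = 0.19, permutation p = 0.0048, q = 0.33), which dropped to 0.11 without CC057. Next were *Alb* with *Pzp* (r = 0.40, rho = 0.47, permutation p = 0.0057, q = 1) and *Alb* with *Ttr* (r = 0.36, rho = 0.33, permutation p = 0.012, q = 1). The lowest was *Rbp4* with *Mug2* (r = -0.46, rho = -0.48, permutation p = 0.0015, q = 0.14), which was -0.50 without the 2 strains farthest from the *Rbp4* median. These counts hold for TMM scaling: on total counts, which *Rn45s* enters, 28 member pairs had an r of at least 0.5 in liver, and on log2(TPM + 1) 12 did.

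Serum amyloid A genes *Saa1* and *Saa2*, classical positive acute-phase genes, summed to between 5.0 CPM in CC002 and 6305 CPM in CC004, around 44.7, in liver. Of the 10 carriers, *Ttr* passed the test against this level with a negative slope and *Pzp* with a positive one. For *Ttr* r was -0.50 (rho = -0.40, permutation p = 0.00043, q = 0.041 over 8836 genes), and CC004, with the highest *Saa1* and *Saa2*, had the lowest *Ttr*. For *Pzp*, r was 0.46 (rho = 0.28, permutation p = 0.0014, q = 0.066), and CC004 had the highest *Pzp*. Both relations rest in part on CC004 and CC016, the strains farthest from the median: without them r was -0.29 for *Ttr* (permutation p = 0.052, n = 45) and 0.34 for *Pzp* (permutation p = 0.022, n = 45), and neither passed over all genes (q = 0.5 and 0.39). Under rank values of TPM, q was 0.12 and 0.15, and after adjustment for the *Rn45s* share it was 0.16 and 0.12. Over all alternatives q ranged from 0.032 to 1 for *Ttr* and from 0.059 to 1 for *Pzp*. *Alb* (r = 0.06, permutation p = 0.71, q = 0.92) and *Ahsg* (r = 0.0001, permutation p = 1, q = 1), known as negative acute-phase proteins in plasma, did not pass, and *Rbp4* had r = -0.32 (permutation p = 0.026, q = 0.21).

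**Figure D3:**
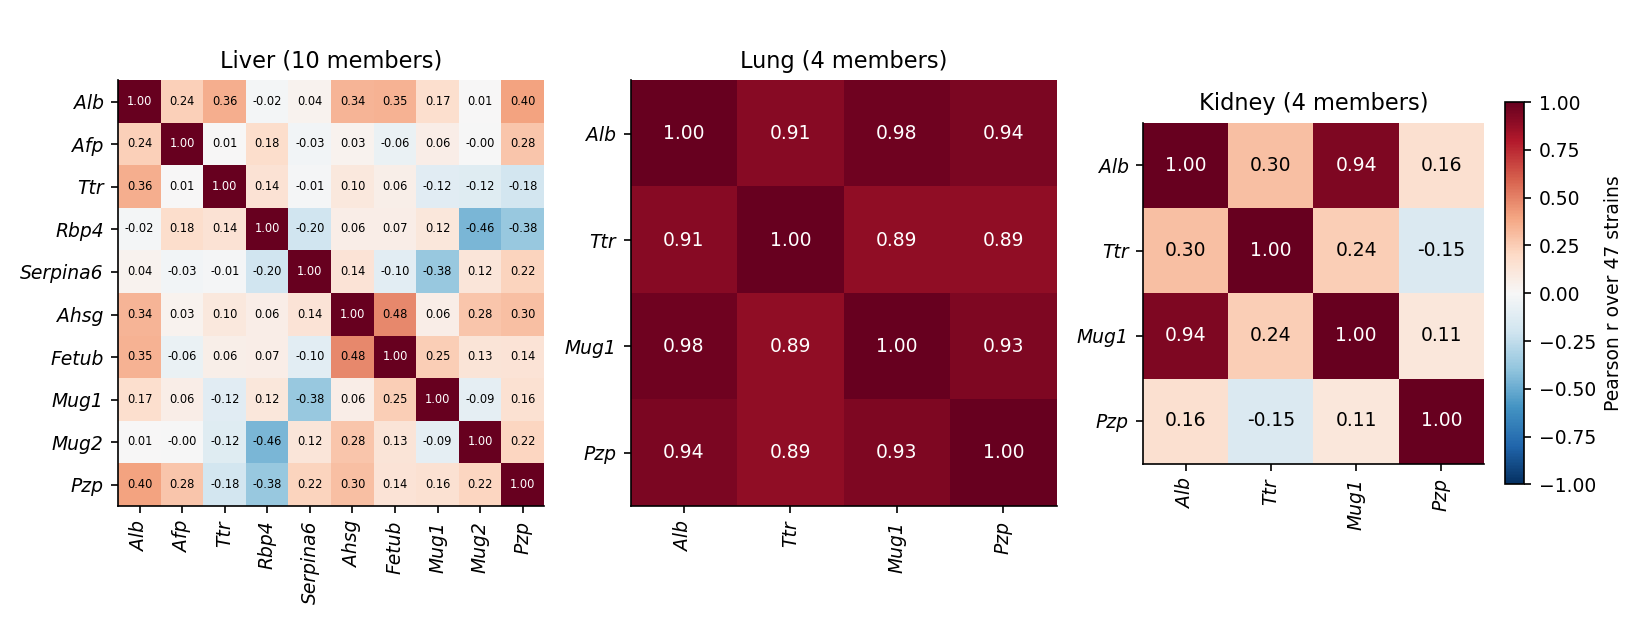
Pearson r over 47 strains between the log2 CPM of carriers, in liver (10 genes), lung (4) and kidney (4), for genes above 1 CPM in at least 50% of the libraries of the tissue; red is positive and blue negative. No liver pair reaches 0.5, all 6 lung pairs lie between 0.89 and 0.98, and in kidney only *Alb* and *Mug1* pair, at 0.94.

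The genes whose liver level over the 47 strains was most like that of each carrier were taken by Pearson r, 3 for each. For *Alb* they were *Gc*, the vitamin D-binding protein (r = 0.57), *Man2b1* (0.50) and *Chdh* (0.45), of which *Gc* and *Chdh* dropped to 0.34 and 0.21 without the 2 strains farthest from the *Alb* median. For *Pzp* they were the fibrinogen chain *Fgg* (0.60), *Fgl1* (0.58) and *Fgb* (0.56). These dropped to 0.44, 0.49 and 0.40 without the 2 strains farthest from the *Pzp* median. *Ttr* was nearest to *Pcbd1* (0.65), *Spg7* (0.61) and *Mtfp1* (0.60), and *Mug1* to *Igfbp4* (0.61), *Selenbp2* (0.60) and *Azgp1* (0.58). *Rbp4* was nearest to *1110065P20Rik* (0.66), *Fetub* to *Zbtb40* (0.58), *Serpina6* to *Zc3h14* (0.59) and *Afp* to *Mms22l* (0.55). *Ahsg* was nearest to *Cox4i1* (0.71), which fell to -0.19 without CC057 and CC027. *Mug2* was nearest to *Bid* (0.59, and 0.58 without its 2 farthest strains), a gene 1.14 Mb from it. Of the 30 genes, 26 had a position in the annotation and 5 of them lay on the carrier's own chromosome, namely *Gc* at 1.03 Mb from *Alb*, *Bid*, *Ccni* at 2.69 Mb from *Afp*, *Zc3h14* at 4.88 Mb from *Serpina6* and *Alcam* at 29.5 Mb from *Ahsg*. *Alcam*, like *Cox4i1*, rests on the CC057 and CC027 livers, with r = 0.62 over all strains and -0.18 without them. On average 4.44% of liver genes lay on a carrier's chromosome.

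In lung and kidney the carriers were set against *Alb* of the same tissue. Summed over the 47 lungs, *Ttr* had 7.73% of the *Alb* counts where it had 7.5% in liver, *Pzp* had 9.90% against 9.63%, *Mug1* had 7.60% against 9.14%, *Ahsg* had 0.759% against 0.691%, *Mug2* had 0.630% against 0.884%, and *Serpina6* had 0.374% against 0.330%. These 6 were within 1.5 times of their liver proportion. *Afp*, *Fetub* and *Rbp4* were far above it, at 1.03% against 0.00463%, 0.676% against 0.00977% and 0.480% against 0.0179%. The *Fetub* sum leaned on few lungs, with 63 of its 235 counts in CC042 and 41 in CC039. Its median over single lungs was 0.228%, against 0.00868% over single livers. In kidney, *Mug1* (6.67%), *Mug2* (0.656%) and *Ahsg* (0.539%) were again near the liver proportion, while *Pzp* stood at 802% of the *Alb* counts, *Ttr* at 204%, *Afp* at 1.72% and *Serpina6* at 1.04%. The *Serpina6* sum leaned on few kidneys, with 72 of its 259 counts in CC041. Its median over single kidneys was 0.397%, against 0.337% over single livers. *Fetub* and *Rbp4* had too few kidney counts, 7 and 5, to be placed. Without the 3 lungs highest in *Alb* (CC010, CC015 and CC017) the lung values were 7.74% for *Ttr*, 9.82% for *Pzp* and 7.36% for *Mug1*, and without the 3 such kidneys (CC024, CC027 and CC049) *Pzp* stood at 986%.

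**Figure D4:**
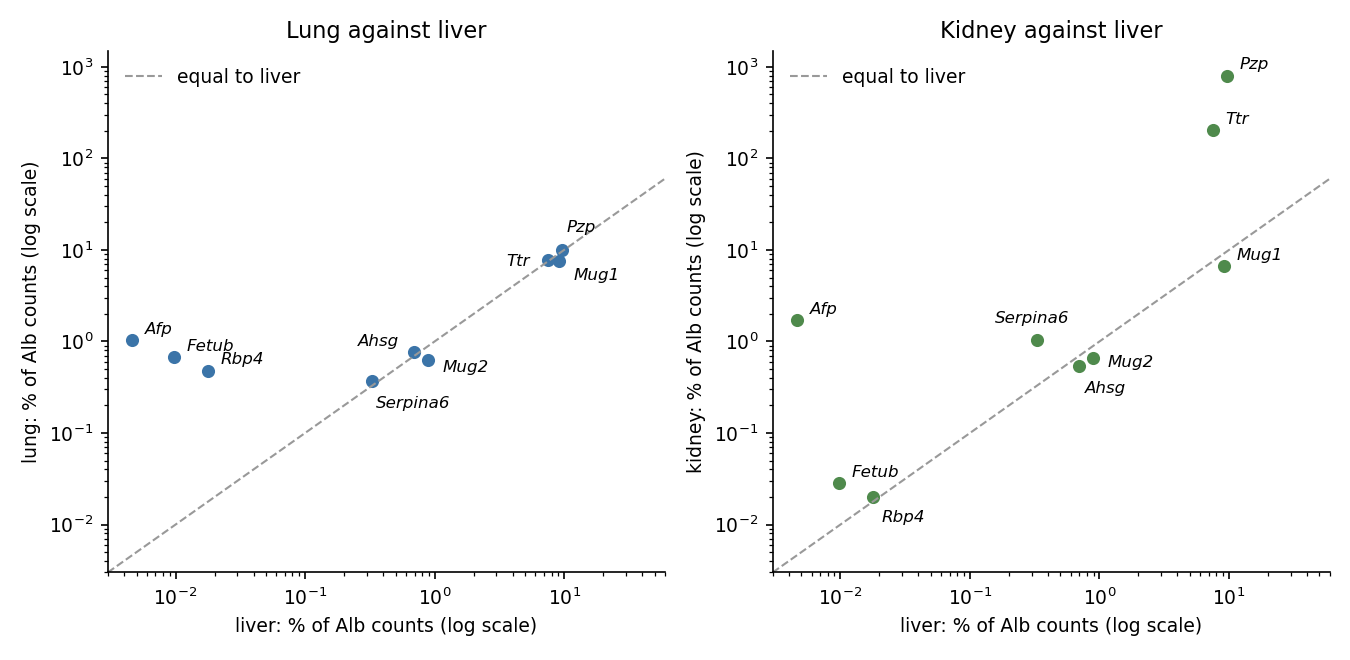
Counts of each carrier as a percent of the *Alb* counts, summed over 47 libraries, in lung (left) and kidney (right) against liver (both axes log); the dashed line marks equal percentages. In lung 6 carriers lie near the line and *Afp*, *Fetub* and *Rbp4* above it, and in kidney *Pzp*, *Ttr*, *Afp* and *Serpina6* lie above it. The median *Serpina6* percentage over single kidneys was 0.397%, against 0.337% over single livers.

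The lung levels moved together over strains. Among the 4 carriers above 1 CPM in at least 50% of lungs, all 6 pairs had r between 0.89 and 0.98 (permutation p = 1e-05 each, the smallest that 100000 permutations can give), where 1.74% of all pairs of lung genes reached 0.5. The highest lungs were CC010 at 421.8 CPM of *Alb* and CC015 at 385.5 CPM, and the lowest CC037 at 0.801 CPM and CC028 at 1.05 CPM. The genes most like *Alb* in lung were the liver genes *Apoa1* (r = 0.97), *Cps1* (0.96) and *Bhmt* (0.95). Over strains the summed CPM of 14 hepatocyte markers in lung, between 30.6 and 400.7, had r = 0.78 with *Alb* (rho = 0.82, permutation p = 1e-05, q = 6.1e-09), and 0.82, 0.81 and 0.85 with *Ttr*, *Mug1* and *Pzp*. Against the adipocyte markers in lung, r ran from -0.19 to -0.08 (q from 0.96 to 0.99). The part of liver RNA in the lung levels was not tested.

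In kidney, *Alb* and *Mug1* had r = 0.94 (permutation p = 1e-05), where 0.718% of all pairs of kidney genes reached 0.5, and *Apoa1* (r = 0.96), *Mat1a* (0.94) and *Cps1* (0.93) were most like *Alb*. *Ttr* and *Pzp* had r of 0.30 and 0.16 with *Alb* and -0.15 with each other. Against the sum of all 14 hepatocyte markers, r in kidney was -0.07 for *Alb*, -0.02 for *Mug1*, -0.18 for *Ttr* and -0.07 for *Pzp*, and none passed (q from 0.44 to 0.95). Some of these markers are also kidney transcripts: *Cyp2e1* was at 20.8% and *Cyp7b1* at 19.6% of their liver medians. A subset of 10 markers with a kidney median under 0.1% of the liver median was taken after these values had been seen, so its relations are a description. Their sum ran from 0.840 to 248.8 CPM in kidney, highest in CC027, which was also the highest kidney for *Alb*. It had r = 0.94 with *Alb*, 0.94 with *Mug1*, 0.23 with *Ttr* and 0.18 with *Pzp* (n = 47). In lung the same subset had r from 0.86 to 0.91 with all 4. Medians of *Alb* stood at 0.0468% of the liver median in lung and 0.0410% in kidney, and those of kidney *Ttr* and *Pzp* at 1.37% and 3.07%.

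**Figure D5:**
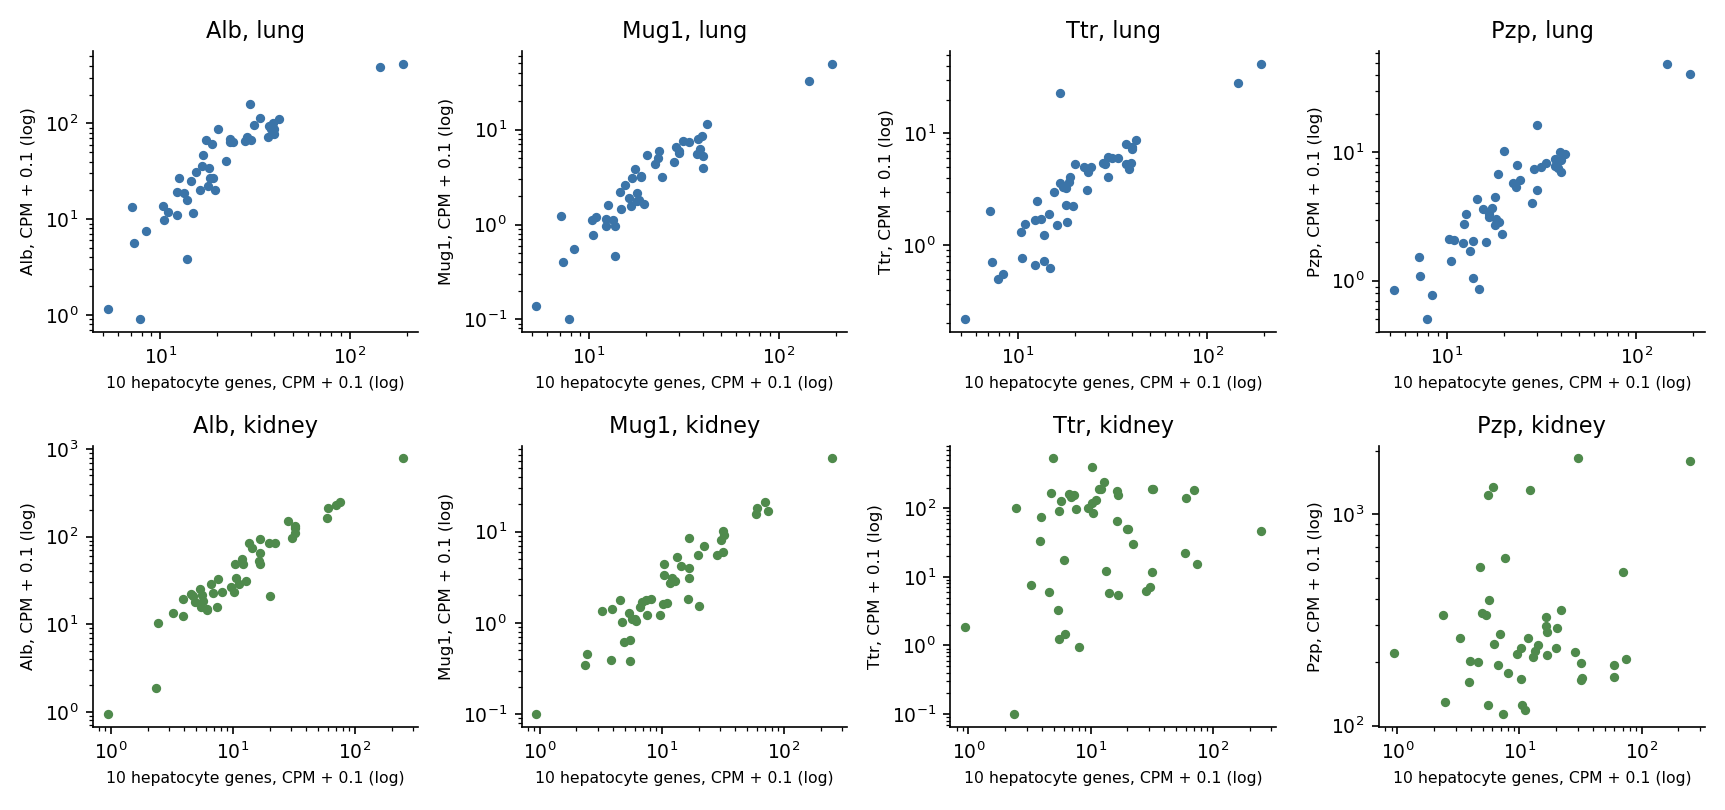
CPM of *Alb*, *Mug1*, *Ttr* and *Pzp* against the summed CPM of 10 hepatocyte markers, chosen for a low kidney level (both axes log, 0.1 added), in 47 lungs (top) and 47 kidneys (bottom); each point is a library. All 4 carriers rise with the markers in lung (r from 0.86 to 0.91), and in kidney *Alb* and *Mug1* do (r = 0.94) while *Ttr* and *Pzp* scatter.

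Because liver *Mug2* differed so widely between strains, the ratio of *Mug2* to *Mug1* in lung and kidney was compared with that in the liver of the same mouse. Of the 30 lungs with at least 20 *Mug1* counts, 16 had a higher ratio than their own liver and 14 a lower one. The lung of CC057 had 18 *Mug2* and 72 *Mug1* counts, or 25%, where its own liver had 0.217%, and that of CC010 had 30 and 345, or 8.70%, where its own liver had 0.731%. The lung of CC006 went the other way, with 7 and 237 counts, or 2.95%, against 25.03% in liver, and so did that of CC042, with 3 and 180 counts, or 1.67%, against 15.8%. These strains were named after their values were seen, and each ratio comes from few counts of 1 library, so no test was made. Over the 30 lungs the pooled ratio was 8.40%, with rho = -0.38 to the own liver, and over the 25 such kidneys it was 9.30%, with rho = 0.16. Pooled over all livers it was 9.68%. The source of these counts was not tested.

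The level of the same carrier was then compared between tissues over the strains. Among the 4 carriers that passed the filter in 3 tissues, 0 of 12 relations reached r = 0.5, with 1 at an unadjusted permutation p under 0.05, where r of at least 0.5 was reached by 5.61% of all genes between liver and lung, 9.32% between liver and kidney and 7.26% between lung and kidney. They ran from -0.15 to 0.33, the highest being *Pzp* between lung and kidney (rho = 0.31, permutation p = 0.024, q = 0.11).

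Other genes of these systems were tested in the same fit, where 23.9% of all genes were higher in liver than in lung and 15.6% higher than in kidney. Of 15 further plasma carriers tested, all 15 were higher in liver than in lung and in kidney, with a median log2 fold change of 8.26 and 7.58, against -0.06 and -0.0034 for all genes. Between lung and kidney they split, 6 higher in lung and 6 in kidney: in lung against kidney, haptoglobin (*Hp*) had a log2 fold change of 5.96 ± 0.13 and afamin (*Afm*), a neighbour of *Alb* and *Afp*, of -6.78 ± 0.12. Of 7 alpha-2-macroglobulin family genes tested, 3 of them carriers described above, 6 were higher in liver than in either organ, and *Cd109*, a membrane-bound member, was lower. *A2m* itself had a liver median of 0.129 CPM, with 39 livers at or under 3 counts. Of 14 receptor and recycling genes tested, 5 were higher in liver than in lung, 1 was lower and 8 were not called. Against kidney, 7 of the 14 were higher in liver, 5 were lower and 2 were not called. The asialoglycoprotein receptor chain *Asgr2* was 6.96 and 6.60 log2 units higher in liver, while *Cubn*, which reclaims filtered albumin, had a log2 fold change of -8.76 ± 0.11 in liver against kidney. Of 12 liver regulators tested, 7 were higher in liver than in lung, 1 was lower and 4 were not called. Against kidney, 6 were higher in liver and 6 were not called. *Hnf4a* was not called in liver against kidney (0.08 ± 0.08, q = 0.31) and had a log2 fold change of -7.89 ± 0.12 in lung against kidney. Of 3 genes tested that are known to be repressed together after birth, *Afp* was higher in liver than in either organ and the other two were lower, among them *Gpc3* (log2 fold change -6.03 against lung and -3.42 against kidney). Of 21 listed chromosomal neighbours of the carriers, 16 passed the low-count filter and were tested. Of these 16, 13 were higher in liver than in lung and 11 higher than in kidney, against 23.9% and 15.6% of all genes tested. This list was chosen by name and shares *Afm*, *Hrg*, *Kng1* and *Kng2* with the further plasma carriers above. It is no sample of the genes around the carriers.

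The filter that the study used before expression QTL mapping removes genes that fail to exceed 1 TPM, after TMM scaling, in more than 50% of a tissue's libraries, and genes for which a 2-cluster split sets 1 library apart. All 10 carriers passed in liver. In lung *Alb*, *Afp*, *Ttr*, *Mug1* and *Pzp* passed. In kidney *Afp*, *Ttr* and *Pzp* passed, and *Alb* and *Mug1* were dropped because 1 library stood apart, CC027 being the highest for both.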

How the data were processed

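Liver, lung and kidney of 1 male from each of 47 CC strains were sequenced by the authors from total RNA after ribosomal depletion, as 50-base single-end reads. According to the paper's methods and the processing notes, reads were aligned with STAR 2.5.3a to pseudo-genomes of each strain (Build37, mm9) and quantified with RSEM from uniquely aligned reads. The authors deposited an expected count for each gene, an estimate in reads that was fractional in 25 values. They also deposited TPM, which corrects for length and library, and FPKM, for which no result is given here. The study's models held a sequencing batch, which the labels used here do not give, so no batch term was fitted.

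Expected counts were rounded and scaled by TMM (edgeR 4.0.16, R 4.3.3). Genes over 1 CPM in 30% of libraries or more (12127) entered limma-voom (limma 3.58.1) with tissue and, as a replicate block, strain. A call needed a Benjamini-Hochberg q ≤ 0.1 and a change of 1 log2 unit or more. The block follows from the 3 tissues of 1 mouse: same-strain deviations correlated with a median r of 0.166 to 0.211, and over 0.1 in 39 to 45 of 47 strains. Correlations were taken on log2 CPM (1 count added), over genes above 1 CPM in at least 50% of a tissue's libraries, 100000 two-sided permutations, and q over all such genes. Biopython 1.88 aligned sequences. The scripts were tested on simulated data.

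The members, gene lists and tests were chosen with earlier results of these data known. Named genes are the members, the list genes with the largest fold change per direction, and the 3 liver genes most like each member; the levels of *Mug-ps1* and *A2m*, the liver against kidney value of *Hnf4a*, and the genes most like *Alb* in lung and kidney were chosen after their values were seen. Alternatives were other scalings, filters, tests and thresholds, a fit without the replicate block, and strains left out.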

Additional observations from a re-analysis of the deposited data

How the results depend on the processing

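Under every alternative to the tissue comparisons all 10 carriers had a higher fitted level in liver than in lung and in kidney. The calls held too, except that *Afp* missed the fold threshold on log2(TPM + 1) in both. In the paired design, the fit without the replicate block called 4 members between lung and kidney, as with the block. Members called there fell from 4 to 2 on log2(TPM + 1) and with 2 tissues in the fit, where *Fetub* and *Rbp4* did not pass the low-count filter, and rose to 7 without a fold threshold. The log2 fold change of Serpina6, lung against kidney, passed the fold threshold with edgeR's quasi-likelihood test (-1.41) and without CC032 and CC042 (-1.05). Neither value is read as a difference, since most lungs and kidneys were at or under 3 counts for *Serpina6*. The count of genes called, liver against lung, rose from 6664 to 12142 without the low-count filter and to 11343 without the fold threshold. That of genes called, liver against kidney, rose from 4412 to 6775 on total counts, 6655 on log2(TPM + 0.1) and 10665 without the fold threshold, and that of genes called, lung against kidney, from 5591 to 11016 without it. Liver pairs with r of at least 0.5 rose from 0 to 28 on total counts and 12 on log2(TPM + 1), scales on which *Rn45s* enters the total. Carriers passing q against *Saa1* and *Saa2* fell from 2 to 0 without CC004 and CC016, on rank values of TPM, on total counts, on log2(TPM + 1) and, added after seeing the data, given the *Rn45s* share. Against adipocyte markers 1 passed on total counts and 0 otherwise. With TPM as deposited the QTL filter kept 2 members in lung (5 with TMM scaling) and 5 in kidney (3 with TMM scaling). *Fetub* and *Rbp4* in kidney, and most *Ahsg*, *Mug2* and *Serpina6* values outside liver, were at or under 3 counts, where a low level and no transcript cannot be told apart.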
